A study of Rattus norvegicus with 32 samples.

Results

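The genes described here are 100 of the 26404 genes counted in rat renal cortex, chosen because they were higher in rats given medication on top of gastric bypass than in rats given the bypass alone. A gene was a member when every RYGB-FMRR rat lay above every RYGB rat, when the group means differed by at least 0.5 in log2 CPM, and when the mean level over both groups was at least 0. CPM is the count scaled to a library of 1000000 counts, so a log2 CPM of 0 is 1 CPM. Of 13358 genes at that level, 179 met the condition of no overlap (1.34%), 113 of these also met the difference of 0.5 (0.846%), and 13 of the 113 were left out by the rule, which left 100. The values of the RYGB and RYGB-FMRR groups thus chose the members, and the difference between these groups is described below with no test.

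Renal cortex was taken from male rats with a labelled age of 37 weeks. SD rats (Sprague Dawley, n = 6) were healthy controls with no operation. The other groups were of the ZDSD strain (Zucker Diabetic Sprague Dawley), which becomes obese and diabetic: SHAM rats had a laparotomy (n = 7 used), RYGB rats had Roux-en-Y gastric bypass (n = 9), and RYGB-FMRR rats had the bypass with fenofibrate, metformin, ramipril and rosuvastatin in the chow (n = 7). By the study's methods the ZDSD groups also had insulin before surgery. Strain, diabetes, insulin, operation and any difference in age at collection cannot be told apart in SHAM compared with SD. The 4 drugs were given together, so that their parts cannot be told apart either. SHAM surgery was done at an earlier age than the bypass, and the bypass was staggered, with RYGB-FMRR operated before RYGB. Age at the bypass and the drugs therefore cannot be told apart between these groups. Tissue was taken a set time after the operation, so ages at collection may differ from the label.

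The cells of the proximal tubule, which make up most of the renal cortex, draw much of their energy from the oxidation of fatty acids in mitochondria and peroxisomes. Fenofibrate activates the nuclear receptor PPARα, which raises the transcription of genes for fatty acid uptake and oxidation, and in rodents also of genes of peroxisomes. Rosuvastatin blocks HMG-CoA reductase in cholesterol synthesis, ramipril blocks the angiotensin-converting enzyme, and metformin lowers glucose production by the liver. Genes appear in the counts under Ensembl identifiers for which no names were at hand here, so the members are given by identifier or by position in the rn5 build, and which of them belong to these pathways was not analysed here. For the same reason the tissue label was not checked against cell type markers. In bulk tissue, fewer cells of a type and less RNA per cell cannot be told apart.

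Total counts ranged from 14502127 to 27597901 in the 29 rats used. SHAM rats 343 and 348 had totals of 121511 and 101534 and stood apart from all others, with 19 and 16 of the members at 0 counts. They were left out of the values below unless stated.

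The members differed between RYGB-FMRR and RYGB by a median of 0.91 in mean log2 CPM, beside a median of -0.098 over all 13358 genes. The middle 50% of the members lay between 0.68 and 1.31, and the range ran from 0.51 to 5.72. A difference of at least 1 was seen in 46 members, of at least 2 in 9 and of at least 3 in 2. The gap between the lowest RYGB-FMRR rat and the highest RYGB rat had a median of 0.32, was under 0.1 in 14 members and was at least 1 in 16. Most members thus stood apart by a small margin, and a minority by a wide one.

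**Figure D1:**
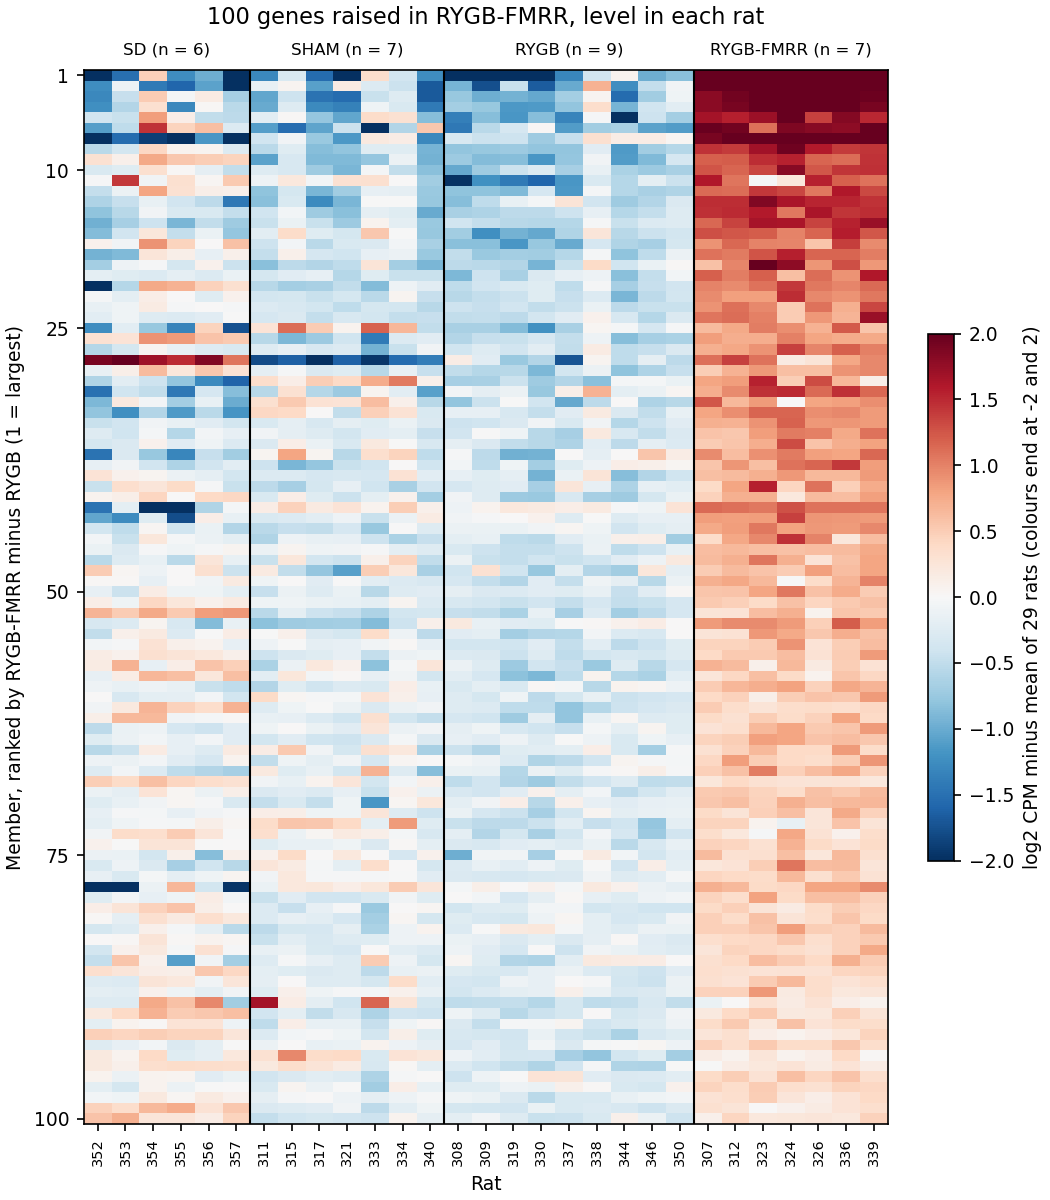
Log2 CPM of the 100 members (vertical axis, ranked by the difference between RYGB-FMRR and RYGB) in each of the 29 rats (horizontal axis), as the difference from each gene's mean over all rats. Red is higher and blue is lower; the 7 RYGB-FMRR rats are higher than the RYGB rats in every member because the rule asked for it, while the SD and SHAM rats vary from gene to gene.

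The largest difference belonged to ENSRNOG00000032202, a gene of 10 exon blocks at chr7:11658216-11666646 on the plus strand. In log2 CPM it was -1.08 at the lowest, 0.81 at the median and 2.18 at the highest in RYGB, with 5.63, 6.25 and 7.09 in RYGB-FMRR, a difference of means of 5.72 or 52.9-fold. Raw counts ran from 10 to 74 in RYGB rats and from 1251 to 3248 in RYGB-FMRR rats. It was as low in SD (-1.35, 0.74 and 2.60) and SHAM (-0.18, 0.87 and 2.47) as in RYGB. The lowest RYGB-FMRR rat lay 3.45 above the highest RYGB rat, the widest gap among the members, and no rat of the other groups came near it. SHAM and SD were not called different for this gene (log2 fold change 0.12, SE 0.54, adjusted p = 0.88 by edgeR), and the sign of that fold change turned when SD rat 352, SD rat 357 or SHAM rat 333 was left out.

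The second, ENSRNOG00000002937 at chr13:55555587-55566981 on the minus strand, was at 4.28, 5.10 and 6.73 (lowest, median and highest) in RYGB and at 8.07, 8.70 and 9.17 in RYGB-FMRR, a difference of 3.29 or 9.8-fold. Its values were 4.05, 4.71 and 5.93 in SD and 4.36, 5.77 and 6.20 in SHAM. The SD, SHAM and RYGB rats overlapped widely and all lay under the RYGB-FMRR rats. The third, at chr1:24089368-24099667 on the minus strand, ran from 5.64 to 7.24 in RYGB, with a median of 6.43, and from 8.99 to 10.2 in RYGB-FMRR, with a median of 9.17. It was at 5.90, 6.93 and 7.69 in SD and 5.51, 6.16 and 6.93 in SHAM. The SHAM rats again overlapped the SD rats, and the log2 fold change of -0.82 (SE 0.30) did not pass (adjusted p = 0.055 by edgeR). It did pass, with log2 fold changes of -0.80 to -0.97, in the DESeq2 test (adjusted p = 0.0492), with all 4 groups in 1 edgeR model (0.0265), with the low libraries kept (0.041), and without SD rat 352 (0.0248) or SHAM rat 334 (0.0314).

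Below these came the member at chr5:138283579-138297977 on the plus strand (difference of means 2.73) and the member at chr9:9943003-9948729 on the plus strand (2.69). The latter was a gene of low level, at -0.79, 0.54 and 1.37 in RYGB and 2.77, 3.07 and 3.68 in the RYGB-FMRR rats. In both, the SD rats (5.21 to 6.82 and 0.88 to 2.23) and the SHAM rats (5.09 to 6.41 and 0.36 to 1.77) lay under every RYGB-FMRR rat. The member at chr15:48768910-48785192 on the minus strand (difference 2.58) was an exception: its SD rats, at 1.78, 2.97 and 4.33, reached into the RYGB-FMRR range of 3.98 to 5.10.

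The next members of the ranking differed in SHAM from SD. The gene at chr2:261907825-261948693 on the minus strand was at 0.59, 0.82 and 1.63 in SD, 1.51, 2.41 and 3.01 in SHAM and 2.09, 2.48 and 3.13 in RYGB, and 4.70, 5.09 and 5.51 in the RYGB-FMRR rats. It was thus higher in SHAM than in SD (log2 fold change 1.29, SE 0.26, adjusted p = 0.00326 by edgeR), and in RYGB-FMRR it stood a further 2.47 above RYGB, away from the SD level. The gene at chr17:24598244-24662657 on the plus strand had the opposite course, with 5.72, 6.08 and 6.37 in SD, 4.54, 4.73 and 5.50 in SHAM and 4.45, 4.77 and 5.55 in RYGB, and 6.73, 6.82 and 7.16 in the RYGB-FMRR rats. Every SHAM rat lay under every SD rat (log2 fold change -1.26, SE 0.17, adjusted p = 0.000227 by edgeR) and every RYGB-FMRR rat above them. The members at chr10:13614548-13627899 and chr5:172912096-173003553, both on the plus strand, differed by 2.27 and 1.97 between RYGB-FMRR and RYGB and were also lower in SHAM than in SD, by smaller amounts (-0.58, SE 0.17, adjusted p = 0.0192, and -0.50, SE 0.15, adjusted p = 0.0246, by edgeR). The call of the latter was lost without SD rat 354 or 355 or SHAM rat 317, with adjusted p of 0.062, 0.058 and 0.053 by edgeR.

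**Figure D2:**
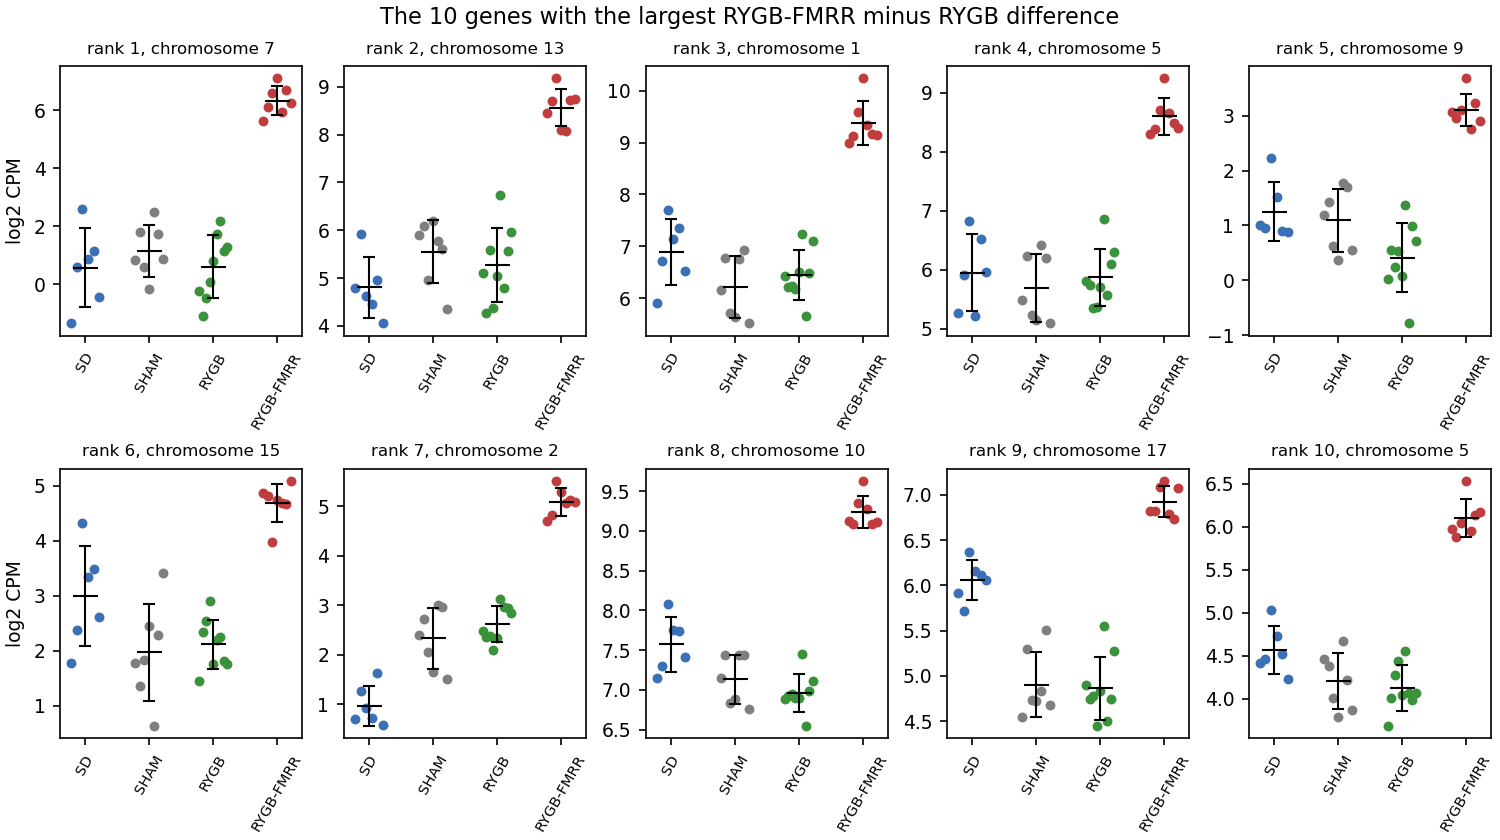
Log2 CPM by rat and group for the 10 members with the largest difference between RYGB-FMRR and RYGB, each panel with its own vertical axis. Points are rats and black marks are the group mean and SD; the RYGB-FMRR rats stand above all other rats in every panel but rank 6, where 1 SD rat at 4.33 reaches into their range.

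The 100 members together took a larger share of the counts in RYGB-FMRR. They held 3.89%, 4.01% and 4.58% of all counts (lowest, median and highest rat) in RYGB-FMRR, 1.57%, 1.81% and 2.16% in RYGB, 1.54%, 1.84% and 2.16% in SHAM and 2.20%, 2.86% and 3.40% in SD. The SHAM and RYGB rats covered much the same range, and the SD rats lay above both without reaching the RYGB-FMRR rats. Since the members were chosen on RYGB and RYGB-FMRR, that part of the order follows from the rule. The SHAM libraries with low totals had shares of 2.11% and 2.14%.

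**Figure D3:**
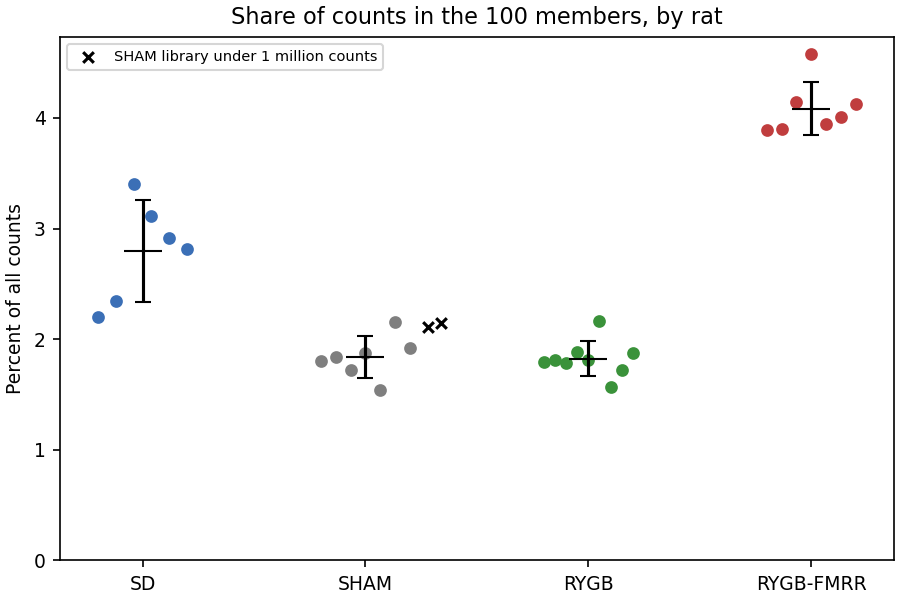
Share of all counts (percent, axis from 0) that fell in the 100 members, with a point for each rat and the group mean and SD in black. The SD rats (2.20% to 3.40%) lie between the SHAM and RYGB rats and the RYGB-FMRR rats (3.89% to 4.58%), and crosses mark the SHAM libraries of low total.

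Much of that share came from a single gene, at chr5:137989329-138000280 on the minus strand, which had the highest level of all members. It had 3971, 5148 and 6704 CPM in RYGB, with 11839, 12168 and 14474 CPM in the RYGB-FMRR rats, a difference of 1.304 in log2 or 2.47-fold. In SD it had 8712, 10502 and 13418 CPM and in SHAM 2703, 4912 and 6124 CPM. The SHAM rats lay below every SD rat, and the log2 fold change of -1.31 (SE 0.21) passed the test (adjusted p = 0.000768 by edgeR), while the RYGB-FMRR and SD rats overlapped. Without this gene the other members summed to 13112 to 20595 CPM in SD, 12665 to 15589 in SHAM and 11723 to 14915 in RYGB, and 26134 to 31353 in the RYGB-FMRR rats, so that SD and SHAM then overlapped.

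Per kilobase of exon the same gene was also the highest of the members named for their level, at a mean log2 CPM per kilobase of 12.6 in RYGB-FMRR. The gene at chr5:138259232-138316870 on the minus strand was at 10.5 on that scale, that at chr3:168266579-168329649 on the minus strand at 9.27, that at chr5:60972004-61027705 on the plus strand at 8.69 and that at chr4:185912083-186013125 on the plus strand at 8.33. On this scale the member at chr10:13614548-13627899, with an exonic length of 973 bases, stood at 9.28, level with the third of these. Among the 5, the gene at chr5:60972004-61027705 was not called in SHAM compared with SD (-0.20, SE 0.14, adjusted p = 0.288 by edgeR), and it ran in log2 CPM from 9.01 to 9.64 in SD, 8.84 to 9.58 in SHAM and 9.21 to 9.63 in RYGB, and 10.3 to 10.6 in the RYGB-FMRR rats. Its RYGB-FMRR rats stood above all others, whose groups overlapped. The gene at chr3:168266579-168329649 ran from 10.8 to 11.3 in SD and from 10.8 to 11.1 in RYGB-FMRR, and no higher than 10.4 in SHAM and 10.6 in RYGB. Here the SHAM and RYGB rats lay under the SD rats, and the RYGB-FMRR rats fell within or just below the SD range.

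Only the SD and SHAM rats were not used to choose the members, and the comparison between them asks how the genes differed between diabetic rats without bypass and healthy controls. All 100 members passed the filter on low counts. With the thresholds of a 1.3-fold change either way and 0.05 on the adjusted p, 28 of the 100 were lower in SHAM, beside 7.31% of all 14387 genes tested, and 5 were higher, beside 8.97% (edgeR quasi-likelihood test with Benjamini-Hochberg adjustment over all genes). The other 67 were not called, 12 of them with an adjusted p under 0.05 and a smaller fold. Every SHAM rat lay below every SD rat in 14 members, beside 2.4% of the 13358 genes, and above in 3, beside 9.07%. On library sizes scaled by TMM, a normalization that allows for a few very abundant genes, these counts were 17, beside 4.9%, and 1, beside 4.02%. With the 2 SHAM libraries of low total kept, 8 lay fully below. The share over all genes was not computed with these libraries, so whether the fall is particular to the members is not known. The members' share of lower genes was larger than that of all genes on either scaling, and the share of higher genes was not.

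The median SHAM minus SD difference of the members was -0.16, where that of all genes was 0.13. TMM scaling moved the median of all genes by -0.13, to -0.0049, and that of the members to -0.30, so that the members stood 0.29 below all genes on either scaling. The mean was lower in SHAM than in SD in 68 members, beside 29.8% of all genes, and in 76 with TMM, beside 50.8%.

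Among the members lower in SHAM, the smallest adjusted p belonged to the gene at chr3:156464197-156481427 on the minus strand. It was at 6.31, 6.52 and 6.67 in SD, 5.19, 5.40 and 5.62 in SHAM and 5.13, 5.32 and 5.65 in RYGB, and 5.88, 6.33 and 6.52 in the RYGB-FMRR rats. The SHAM and RYGB rats covered the same range, well under the SD rats (SHAM compared with SD, log2 fold change -1.24, SE 0.091, adjusted p = 1.64e-06 by edgeR), and the RYGB-FMRR rats overlapped the SD rats.

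The largest fold belonged to the gene at chr1:101151631-101155517 on the plus strand, which was 14.9-fold lower in SHAM than in SD (log2 fold change -3.89, SE 0.31, adjusted p = 3.45e-06 by edgeR). It was at 3.11, 3.82 and 5.16 in SD, -0.58, 0.41 and 0.67 in SHAM and 0.31, 1.53 and 2.19 in RYGB, and 2.23, 3.001 and 3.41 in the RYGB-FMRR rats. Its raw counts were 180 to 858 in SD and 14 to 30 in SHAM. The group means stepped up from SHAM to RYGB to RYGB-FMRR to SD, and it was the only member whose RYGB-FMRR mean lay at least 0.5 under the SD mean. The lowest RYGB-FMRR rat stood just 0.040 above the highest RYGB rat.

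The genes at chr3:168266579-168329649 (-1.02, SE 0.11, adjusted p = 3.07e-05 by edgeR), described above, and at chr1:260338636-260404074 on the minus strand (-0.87, SE 0.11, adjusted p = 0.000139 by edgeR) had the next smallest adjusted p. The latter was at 8.09, 8.30 and 8.55 in SD, 7.29, 7.58 and 7.73 in SHAM and 7.39, 7.48 and 7.67 in RYGB, and 7.81, 8.06 and 8.14 in the RYGB-FMRR rats. In both, SHAM and RYGB overlapped each other and lay fully under SD. The highest RYGB-FMRR rats just reached the lowest SD rat at chr1:260338636-260404074, while at chr3:168266579-168329649 most RYGB-FMRR rats lay within the SD range.

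The 5 members higher in SHAM had low or moderate levels. Beside the gene on chromosome 2 given above, the gene at chr2:2604443-2614390 on the plus strand was at 1.73, 1.99 and 2.41 in SD, 2.46, 3.24 and 3.42 in SHAM and 2.47, 2.73 and 3.14 in RYGB, and 3.74, 3.89 and 4.12 in the RYGB-FMRR rats (SHAM compared with SD, 0.90, SE 0.18, adjusted p = 0.00263 by edgeR). The gene at chr13:88600755-88667831 on the plus strand was near a log2 CPM of 0 throughout, with medians of -0.56 in SD, 0.52 in SHAM and -0.46 in RYGB, and 0.91 in the RYGB-FMRR rats (1.12, SE 0.23, adjusted p = 0.00375 by edgeR). In the chromosome 2 gene the SHAM and RYGB rats overlapped between the SD and the RYGB-FMRR rats, while in the chromosome 13 gene the SHAM rats were above the SD rats and within reach of the RYGB-FMRR rats.

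The other two lie side by side, at chr3:154820985-154831486 on the minus strand (1.06, SE 0.33, adjusted p = 0.0294 by edgeR) and chr3:154841931-154888352 on the plus strand (0.82, SE 0.25, adjusted p = 0.0262 by edgeR); the former was named after its values were seen. The count of higher members was 3 without SD rat 352, beside 7.82% of all genes, or without SHAM rat 315, beside 8.02%. The member at chr3:154841931-154888352 was not called without SD rat 352, SD rat 355 or SHAM rat 315 (adjusted p of 0.057, 0.062 and 0.051 by edgeR).

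**Figure D4:**
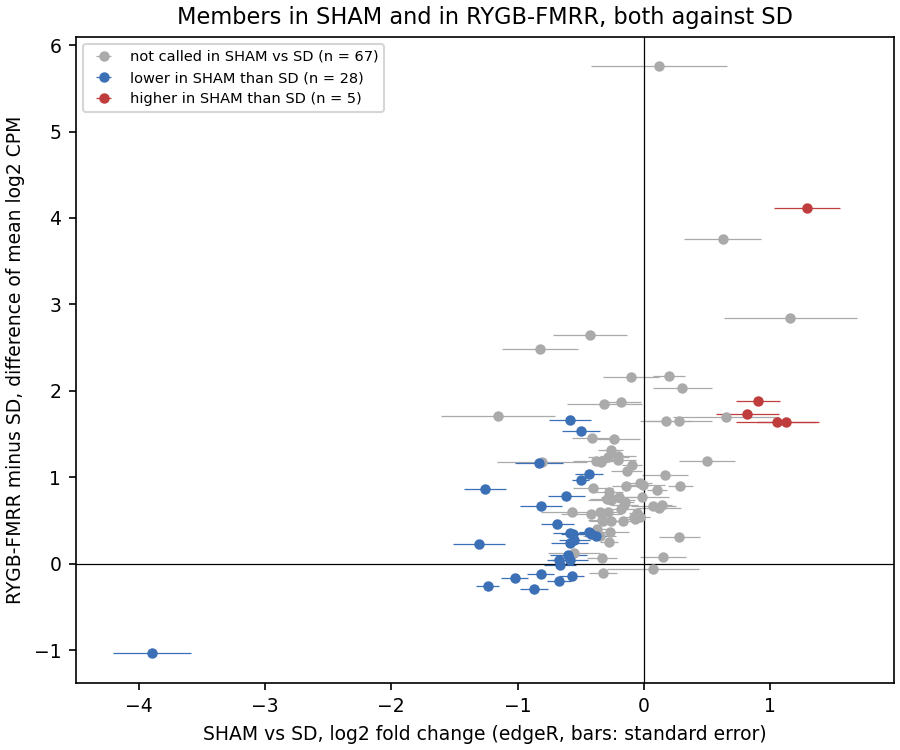
SHAM compared with SD (log2 fold change by edgeR, bars are standard errors) against the difference of mean log2 CPM between RYGB-FMRR and SD, with a point for each of the 100 members. Of the 28 members lower in SHAM (blue) most lie near or somewhat above 0 on the vertical axis, and the 5 higher in SHAM (red) all lie above it; both axes share the SD rats.

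The levels in RYGB-FMRR were set beside those of SD and SHAM with no test, since the RYGB-FMRR values chose the members. Every RYGB-FMRR rat lay above every SD rat in 64 members, beside 5.48% of all genes (59 with TMM, beside 5.91%), and in none did every RYGB-FMRR rat lie below, while the groups overlapped in 36. The RYGB-FMRR mean was at least 0.5 above the SD mean in 67 members, within 0.25 of it in 16, and at least 0.5 below it in 1. Every RYGB-FMRR rat lay above every SHAM rat in 74 members, beside 2.08%, and above every other rat of the 3 groups in 53, beside 0.599%. Every RYGB-FMRR rat thus stood above all the healthy and the diabetic controls in 53 of the 100 members. The rule favoured high RYGB-FMRR values, so larger shares than over all genes follow from it in part. The 0.599% also counts only genes with every RYGB-FMRR rat above every RYGB rat, which the rule asked of every member.

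The call in SHAM compared with SD went with where the RYGB-FMRR rats stood. Of the 28 members lower in SHAM, the RYGB-FMRR rats overlapped the SD rats in 19 and lay fully above in 9. Of the 67 not called, they overlapped in 17 and lay fully above in 50, and of the 5 higher in SHAM they lay fully above in all 5. The SD rats enter both sides of this description, so a low SD level alone moves a member toward both a higher SHAM and a higher RYGB-FMRR value.

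By the size of the difference between RYGB-FMRR and RYGB, in 37 of the 46 with a difference of at least 1 every RYGB-FMRR rat lay above every SD rat, and in 27 of the 54 with a smaller one. The RYGB-FMRR values enter both the split and this count, so a high RYGB-FMRR level alone favours the larger share among the 46. Members lower in SHAM made up 12 of the 46 and 16 of the 54, and all 5 members higher in SHAM were among the 46.

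In RYGB most members were near the SHAM level, but so were most genes. The RYGB mean was within 0.25 of the SHAM mean in 66 members, below it in 66 and above it in 34. The median difference was -0.081, beside -0.026 over all genes. The lower and upper quartiles of this difference were -0.27 and 0.063 in the members, beside -0.14 and 0.077 over all genes. The members were thus no closer to SHAM than genes in general. Against SD, the RYGB median difference was -0.23, beside 0.098. RYGB-FMRR stood above SHAM by a median of 0.82, beside -0.11, and above SD by 0.74, beside 0.013. A low RYGB level and a high RYGB-FMRR level were both favoured by the rule. The RYGB-FMRR mean lay under the SHAM mean in 3 members, at chr5:152374954-152381791, chr15:48926516-48939266 and chr19:47917775-47932374.

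In 4 members the spread among SD rats was more than 3 times the widest spread in any ZDSD group. These were found after their values were seen, and 3 are given here. The share over all genes was not computed, so whether 4 is many is not known. A small spread in RYGB and RYGB-FMRR makes the condition of no overlap easier to meet, and that spread enters this count. The gene at chr15:48799895-48836847 on the plus strand was at 6.13, 7.40, 3.81, 3.34, 7.01 and 7.57 in SD rats 352 to 357 in turn, while the SHAM rats ran from 7.68 to 8.09, the RYGB rats from 7.50 to 7.88 and the RYGB-FMRR rats from 8.67 to 8.87. Its counts in SD ran from 278 in rat 355 to 4044 in rat 353, and the cause of this spread was not tested. SD rats 354 and 355 were low and the other 4 closer to the ZDSD rats, and the log2 fold change of 1.16 (SE 0.52) between SHAM and SD did not pass (adjusted p = 0.111 by edgeR).

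The gene at chr1:196174780-196209980 on the plus strand was at 2.80, 2.93, 4.95, 5.73, 4.69 and 3.10 in the same order of SD rats, and between 4.88 and 5.57 in SHAM and RYGB. The abundant gene at chr5:138259232-138316870 was at 9.02, 10.7, 11.99, 11.9, 11.7 and 11.6 in SD, and between 10.4 and 11.2 in SHAM and RYGB. SD rats 352, 353 and 357 were low for the former and rats 352 and 353 for the latter. Rats 352 and 353 were thus low for both, whereas the rats low for the gene on chromosome 15 were 354 and 355. Without SD rat 352 the chromosome 5 gene was lower in SHAM than in SD (log2 fold change -1.03, adjusted p = 0.00698 by edgeR), which with that rat it was not (-0.81, SE 0.36, adjusted p = 0.102 by edgeR).

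In each group some rats were more often at an extreme. SD rat 354 was the highest SD rat in 51 members and SD rat 352 the lowest in 34. RYGB rat 338 was the highest RYGB rat in 39 members and so set the margin to RYGB-FMRR there, and RYGB-FMRR rat 324 was the highest of its group in 35. SHAM rat 334 was the highest in 28 and SHAM rat 340 the lowest in 37. Across the 6 SD rats, the Pearson correlation of a member with the mean of the other members had a median of 0.50, was over 0.7 in 25 members and under 0 in 16. Across the 7 SHAM rats the median was 0.45, with 28 over 0.7 and 22 under 0. These are descriptions over few rats that share their library totals, and members moved together in part only. The same values for other genes were not computed, so whether the members moved together more than other genes is not known.

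In structure the members were close to the other genes of the level asked for. Their exonic length had a median of 1956 bases, beside 2050 over all 13358 genes, their exon blocks a median of 10, beside 9, and their span in the genome a median of 19.3 kb, beside 19.6 kb. A single exon block was listed for 3 members, beside 5.05% of all genes. Their median level over RYGB and RYGB-FMRR was 5.85, beside 4.80, and 20 members were at 8 or more while 11 were under 2. This level includes RYGB-FMRR, where the rule made the members high, so it does not show that they are abundant genes otherwise. The member at chr10:88335810-88345697, for example, had a mean of -0.49 in RYGB and reached the level asked for through RYGB-FMRR (1.45). The plus strand held 47 of the members.

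Chromosome 5 held 17 of the 100 members, beside 6.67% of the genes at the same level, chromosome 6 held 7, beside 4.65%, and chromosome 15 held 6, beside 2.67%. Chromosome 1, with the most genes, held 12, beside 12.5%. Within 250 kb of another member lay 21 members, in 8 groups of neighbours. The number for an equal set of other genes was not computed, so whether this is many is not known. Genes next to each other in the genome are not independent observations.

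The largest of these groups held 5 members on the minus strand within chr6:118006796-118293920. They differed between RYGB-FMRR and RYGB by 0.78 to 1.302, while the other 3 genes of the level asked for in that stretch differed by -0.15 to 0.02. In SHAM compared with SD, 2 of the 5 were lower, at chr6:118021372-118026536 (-0.68, SE 0.13, adjusted p = 0.00228 by edgeR) and chr6:118266310-118293920 (-0.61, SE 0.15, adjusted p = 0.00766 by edgeR). The others had log2 fold changes of 0.10, -0.21 and -0.095 and were not called. Near copies of a gene, if these are such, can split reads between them in the authors' counting, and this was not tested.

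On chromosome 5, 3 members lay within chr5:138259232-138523457, 259 kb beyond the most abundant member. They differed by 1.24 to 2.73 and the 4 other genes of that level by -0.13 to 0.08. The member at chr5:138283579-138297977, on the plus strand, lies inside the span of the abundant minus-strand member at chr5:138259232-138316870, and the authors counted by strand. Counts of the plus-strand gene were 0.94% to 7.43% of those of the minus-strand gene in SD rats, 1.64% to 6.41% in SHAM, 2.03% to 4.86% in RYGB, with 6.38% to 9.36% in the RYGB-FMRR rats. The ratio was not fixed across rats, and the part of reads assigned to the wrong strand was not tested. In all, 12 members overlap a gene on the opposite strand and 3 a gene on the same strand, and the shares over all genes were not computed.

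**Figure D5:**
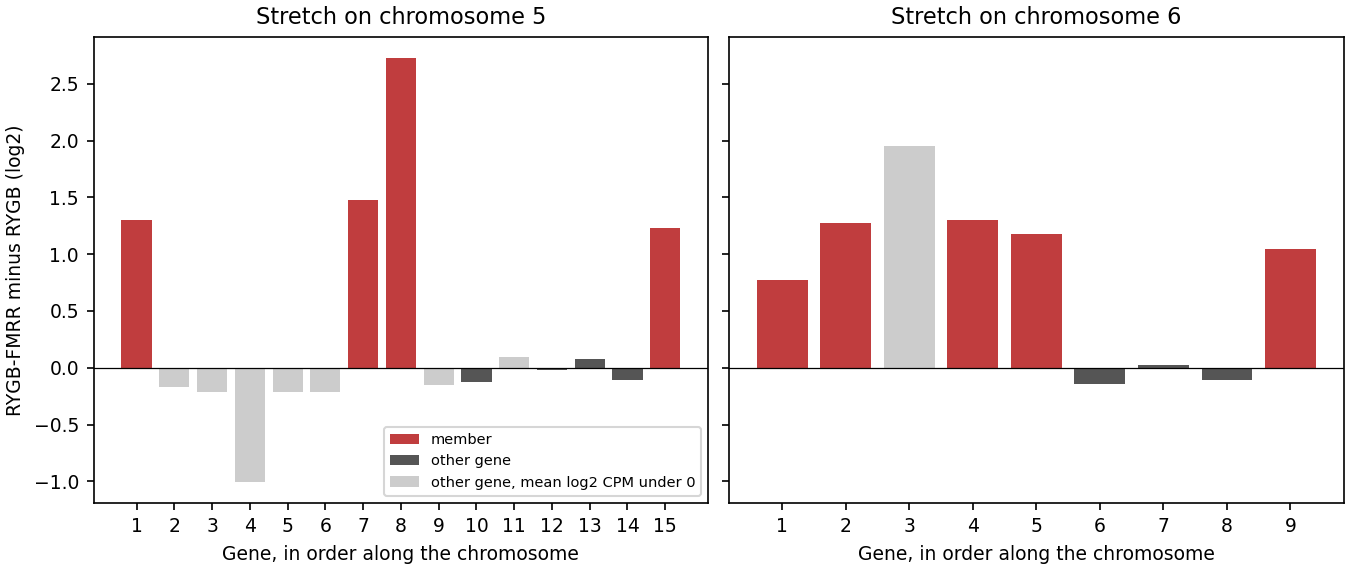
Difference of mean log2 CPM between RYGB-FMRR and RYGB (vertical axis) for every gene listed in a stretch of chromosome 5 and a stretch of chromosome 6, in order along the chromosome. Members are red, other genes dark grey and genes with a mean log2 CPM under 0 light grey; the dark grey genes lie between -0.15 and 0.08, and members lie beside them at 0.78 or more.

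The third group, of 3 members within chr15:48768910-48939266, differed by 0.59 to 2.58, and the other gene of that level between them by -0.54. It holds the member whose SD rats spread most and its neighbour at chr15:48768910-48785192. In SD rats 352 to 357 that neighbour was at 1.78, 2.38, 4.33, 3.34, 3.49 and 2.61, so it was highest in rat 354, where the former was at 3.81. The other 5 groups were pairs, on chromosomes 1, 3, 20 and 5, among them the pair on chromosome 3 that was higher in SHAM.

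At the edge of the rule, the 3 members with the smallest differences were at 0.507, 0.523 and 0.527, and the 3 genes just outside that met the other conditions at 0.496 each. Nothing sets these genes apart but the threshold, and 66 genes with no overlap lay under it. In the opposite direction 191 of the 13358 genes had every RYGB-FMRR rat below every RYGB rat, 51 of them with a mean difference of -0.5 or lower. This stands beside 179 and 113 in the direction of the members. These counts depend on the scaling: the median RYGB-FMRR minus RYGB difference of all genes was -0.098 on library totals and -0.0076 with TMM. TMM gave 127 members in place of 100, and the count in the opposite direction was not made with TMM.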

How the data were processed

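Stranded, paired-end RNA sequencing was done on renal cortex. By the labels and methods, the authors trimmed reads with Trim Galore, aligned them to rn5 with STAR and counted read pairs on the reverse strand of Ensembl genes with featureCounts 1.6.4. The deposited values are the raw counts of each gene, to which the authors applied no normalization and no filter. Samples were grouped by their labels, and each is a separate rat; an RYGB-FMRR rat that the labels list was not analysed here. No pair of libraries had identical counts (0 pairs).

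Log2 CPM was computed as the log2 of 1000000 times the count plus 0.5, divided by the library total plus 1, in libraries of over 1000000 counts. SHAM was compared with SD in edgeR 4.0.16 (R 4.3.3) with TMM, filterByExpr (minimum count 10) and the quasi-likelihood test on the SD and SHAM rats alone, with no covariates. Standard errors are the size of the log2 fold change over the square root of F. Called genes changed by 1.3-fold or more with a p under 0.05 after Benjamini-Hochberg adjustment over all genes tested, the study's thresholds; the study's own test, of DESeq2, was an alternative (DESeq2 1.42.0). On simulated counts for SHAM compared with SD (14305 genes, 200 changed), 180 changed and 9 unchanged genes were called.

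The members and lists were chosen with earlier results of these data known. Members named are the 10 with the largest difference, the 5 with the highest level, the 4 with the smallest adjusted p in each direction of SHAM compared with SD, and those at the edge of the rule; at most 2 are given by identifier. Pathway lists, cell type markers and promoter motifs had been intended and were not analysed, since the identifiers could not be paired with names here. Alternatives were DESeq2, its size factors in edgeR, no filter, all 4 groups in 1 model, the low libraries kept, no fold threshold, TMM scaling, other rule thresholds and leaving out each rat. The 500 kb distance and leaving out rats for counts of no overlap were chosen after seeing the data.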

Additional observations from a re-analysis of the deposited data

Results flagged for a closer look

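A value was marked where the highest or lowest rat of a group of 4 to 10 stood far from the rest for the size of the group (Dixon's criterion). The values of RYGB and RYGB-FMRR chose the members, and the groups of values share rats and genes, so a number given by chance is rough here. Of 108 groups of values tested, over 23 members and 4 summed measures, 9 were marked, where chance nominally marks about 1 in 20, or 5.4. RYGB-FMRR rat 324 accounted for 5: it was the highest of its group for the members at chr5:138283579-138297977 (log2 CPM 9.24, next 8.70), chr5:137989329-138000280 (13.8, next 13.6) and chr5:138259232-138316870 (12.7, next 12.4), for the summed CPM of all members (45827, next 41406) and for the CPM of the most abundant member (14474, next 12808), which overlaps the other measures. RYGB-FMRR rat 323 was lowest at chr15:48768910-48785192 (3.98, next 4.67). SD rat 357 was lowest at chr4:185912083-186013125 (10.1, next 10.3). RYGB rat 337 was lowest at chr1:101151631-101155517 (0.31, next 1.304), and RYGB rat 338 was highest at chr2:2604443-2614390 (3.14, next 2.80).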

How the results depend on the processing

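No paired analysis was possible because each rat belongs to 1 group and the rat numbers of the labels do not recur. The count of members lower in SHAM than in SD was 28, beside 7.31% of all genes tested. It ranged from 26 to 36 when each rat was left out in turn, beside 6.01% to 8.67%. Under the other settings it ranged from 28 to 39, beside 5.76% to 14.1%. The 39 and the 14.1% both came with no fold threshold. The count of higher members was 5, beside 8.97%. It ranged from 3 to 7 when a rat was left out, beside 7.1% to 10.8%, with 3 without SD rat 352 or SHAM rat 315. Otherwise it was 5 or 6, beside 6.45% to 13.7%. Asking for a difference of at least 1 left 46 members, TMM gave 127 that held all 100, a mean level of at least 1 gave 94, and leaving out an RYGB or RYGB-FMRR rat gave 102 to 120. Members fully lower in SHAM numbered 8 with the low libraries kept, and 14 to 17 when a rat was left out. Those fully higher numbered 1 with TMM, beside 4.02% of all genes, and 3 to 4 when a rat was left out. The shares over all genes were not computed with the low libraries kept or with a rat left out, for these counts of no overlap. TMM moved the median SHAM minus SD difference to -0.30 and the median RYGB-FMRR minus SHAM difference to 0.95. The count with every RYGB-FMRR rat above every SD rat was 64 to 69 when an SD rat was left out, again with no share over all genes computed. Within 500 kb of another member lay 25 members. Of 414 values of single members, 391 kept their direction and their side of the threshold, 14 passed it and 6 lost it. The other 3 changed direction with no call: SHAM compared with SD for ENSRNOG00000032202 was -0.10 without SD rat 352, -0.050 without SD rat 357 and -0.12 without SHAM rat 333, within a range of -0.12 to 0.82 when a rat was left out. The causes were not tested. Members of low level rest on few reads, which limits the precision of their values.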

Other observations

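The SHAM libraries of low total, rats 343 and 348, gave the most abundant member at 6411 and 5772 CPM, beside 2703 to 6124 CPM in the other SHAM rats. In the stretch on chromosome 6, a gene on the plus strand between the members had a mean log2 CPM of -3.90, under the level the rule asked for, and differed by 1.96 between RYGB-FMRR and RYGB. At that level it rests on few reads, and no test was made of it.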
